A study of Sus scrofa with 6 samples.

Results

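Scavenger receptors and markers of resident macrophages were measured by RNA sequencing in abdominal aorta of miniature swine, in 3 pools with atherosclerotic lesions and 3 lesion-free pools. The set was a list of 10 symbols: the lipid scavenger genes MSR1, CD36, CD68, OLR1 and MARCO, the endocytic receptors CD163 and MRC1, and the resident markers LYVE1, FOLR2 and F13A1. A gene entered when its symbol in the deposited table equalled a listed one. This found 9 of the 10 among 22861 genes in all, and MRC1 was absent under that symbol. Of the 9, 7 passed the filter on low counts and were tested, and CD163 and MARCO were too low. Members that are high only in lesion pools pass such a filter because they are high there, so the number that passed says nothing about direction.

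Lesions were present in the pools from the WMS FH line, that is, Wisconsin Miniature Swine whose familial hypercholesterolaemia raises cholesterol from birth. The lesion-free pools came from normal swine of the same breed (WMS normal). Each group's 3 pools hold 11 animals in all, and the labels do not say which animals shared a pool. Each p-value therefore measures the spread between pools. Both groups share the breed and the tissue. The labels give no age, sex, diet, treatment or batch, and swine line and lesion status cannot be told apart.

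Scavenger receptors are surface or lysosomal proteins of phagocytes that bind modified lipoproteins, dead cells and microbes. MSR1 and CD36 take up oxidised low-density lipoprotein without the feedback that limits the native lipoprotein receptor, and macrophages that fill with cholesterol in this way become the foam cells of an atherosclerotic plaque. Arteries also hold resident macrophages, which in mice lie mainly in the adventitia, express LYVE1 and FOLR2, and are largely seeded around birth. Plaque macrophages come largely from blood monocytes and from cell division within the lesion. Setting the scavenger genes against the resident markers therefore compares genes linked to lipid uptake with genes linked to macrophages of the normal wall. In bulk tissue, fewer cells of a type and less RNA per cell cannot be told apart.

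Levels are given as CPM, read counts scaled to a common library size, with the 3 lesion pools numbered 1 to 3 and the 3 lesion-free pools numbered 4 to 6. Total counts were 4650176, 10055160 and 11442433 in lesion pools 1, 2 and 3 and lay between 8492673 and 10826175 in lesion-free pools. Lesion pool 1 was the shallowest and stood apart. Across genes, r between log2 CPM of lesion pool 1 and lesion pools 2 and 3 was 0.792 and 0.794, while r between lesion pools 2 and 3 was 0.912. At 3 counts, the limit that a count of 0 allows, a gene would stand at 0.577 CPM in the shallow pool 1 and at 0.268 to 0.359 CPM elsewhere, for counting error only. Without lesion pool 1 the calls of all 7 tested members were the same. Smooth muscle genes, which define the tissue, had a summed level of 32000 to 44100 CPM in lesion pools and 70400 to 83200 CPM in lesion-free pools.

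The names were checked against a reference table of pig gene identifiers. In 7 of the 9 entries the name was the same, and the identifier of CD36 was not in that table. The entry carrying the symbol CD163 (ENSSSCG00000010787) is named SCART1 there, a related scavenger receptor of T cells in mice. Its values are therefore not taken as those of CD163, the haemoglobin receptor of macrophages. It had 0, 0 and 6 counts in lesion pools and 0, 0 and 7 counts in lesion-free pools. MARCO, a collagen-like receptor of alveolar and marginal zone macrophages that binds bacteria, had 0, 0 and 3 counts in lesion pools and 0, 0 and 4 counts in lesion-free pools. Neither was tested. In the 4 pools without a MARCO count, that depth allows a level of up to 0.577 CPM.

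All 4 tested scavenger genes were higher in lesion pools, and none of the 3 tested resident markers passed the test in either direction. Among all 11673 genes tested with limma, 0.968% were called higher and 0.0771% lower at an adjusted p of 0.05. The groups did not overlap in the 4 scavenger genes and overlapped in each resident marker. Of all genes tested, 10.5% were higher in every lesion pool than in every lesion-free pool, and 8.97% were lower in every one. The median log2 fold was 4.24 over the 4 scavenger genes, -0.27 over the 3 resident markers and -0.00218 over all genes tested.

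MSR1, the trimeric class A receptor through which macrophages take up acetylated and oxidised lipoprotein, stood at 204, 111 and 124 CPM in lesion pools 1, 2 and 3 and at 7.54, 6.47 and 3.96 CPM in lesion-free pools 4, 5 and 6. The lowest lesion pool was 14.7 times the highest lesion-free pool, and lesion pool 1 was the highest of all. The means with SD over 3 pools were 146 ± 50.3 CPM with lesions and 5.99 ± 1.84 CPM without. The log2 fold was 4.60 (SE 0.51, limma adjusted p = 0.000227), a 24.3-fold rise with a 95% interval of 11.3 to 52.0. By fold it ranked 84 of the genes tested.

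CD68, a heavily glycosylated protein of late endosomes and lysosomes that is used as a general macrophage marker, had 169, 129 and 371 CPM in lesion pools and 17.6, 12.6 and 8.84 CPM in lesion-free pools. Here lesion pool 3 was the highest, at 2.88 times the lowest lesion pool, and all lesion pools lay above all lesion-free pools. CD68 averaged 223 ± 130 CPM with lesions and 13 ± 4.38 CPM without (SD over 3 pools). It rose 16.1-fold (log2 fold 4.01, SE 0.48, limma adjusted p = 0.000644). MSR1 and CD68 were called whichever single pool was left out, with a highest limma adjusted p of 0.000756 for MSR1 and 0.00629 for CD68.

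CD36, a class B receptor for oxidised lipoprotein and long-chain fatty acids that is also made by adipocytes, platelets and capillary endothelium, had 142, 45.5 and 40.7 CPM in lesion pools and 2.80, 8.02 and 6.50 CPM in lesion-free pools. Lesion pool 1 was 3.49 times the lowest lesion pool, and the groups did not overlap. The rise was 11.4-fold with a 95% interval of 3.84 to 33.9 (log2 fold 3.51, SE 0.73, limma adjusted p = 0.036). CD36 averaged 76.1 ± 57.2 CPM with lesions and 5.78 ± 2.69 CPM without (SD over 3 pools). Without lesion pool 1 the log2 fold was 3.03 (limma adjusted p = 0.00629). Its call was lost without lesion-free pool 4, 5 or 6, at a limma adjusted p of 0.128, 0.109 and 0.110.

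OLR1, the lectin-like receptor for oxidised lipoprotein known as LOX-1, which endothelium and smooth muscle can also make, had 32.1, 21.2 and 39.7 CPM in lesion pools and 1.08, 1.80 and 1.12 CPM in lesion-free pools. The lesion-free pools held only 10, 15 and 11 counts, so they lie close to the filter. The lowest lesion pool was still 11.8 times the highest lesion-free pool. OLR1 rose 22.3-fold with a wide 95% interval of 5.05 to 98.6 (log2 fold 4.48, SE 1.0, limma adjusted p = 0.0479). Its call was lost without lesion pool 3 (limma adjusted p = 0.0528) and without lesion-free pool 4, 5 or 6 (limma adjusted p = 0.156, 0.203 and 0.202).

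**Figure D1:**
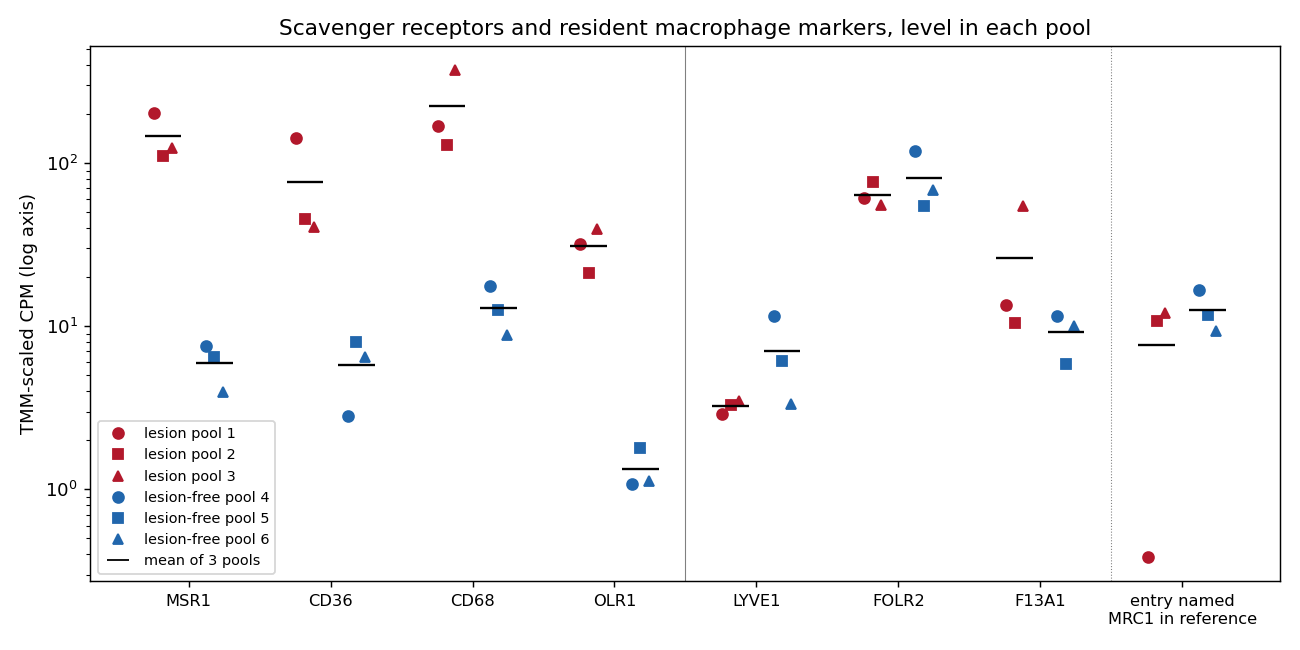
Level of each tested gene in every pool, as TMM-scaled CPM on a log axis, with lesion pools in red, lesion-free pools in blue and bars at the mean of 3 pools. MSR1, CD36, CD68 and OLR1 are higher in all lesion pools, whereas the groups overlap in LYVE1, FOLR2, F13A1 and an entry that only the reference names MRC1; MARCO and the entry labelled CD163 were too low to plot.

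The resident markers gave another picture. LYVE1, a hyaluronan receptor of resident macrophages and of lymphatic endothelium, had 2.88, 3.30 and 3.47 CPM in lesion pools and 11.6, 6.11 and 3.35 CPM in lesion-free pools. The lesion pools lay close together at the low end and overlapped only lesion-free pool 6. The counts behind these values were 15, 37 and 38 in lesion pools and 108, 51 and 33 in lesion-free pools. LYVE1 had a log2 fold of -0.89 (SE 0.77, limma adjusted p = 0.712), and its 95% interval on the fold scale ran between 0.173 and 1.69.

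FOLR2, folate receptor beta, a membrane-anchored folate-binding protein, had 60.7, 76.2 and 55.0 CPM in lesion pools and 119, 54.9 and 68.9 CPM in lesion-free pools. The groups overlapped fully apart from lesion-free pool 4, which was the highest. FOLR2 averaged 64.0 ± 11.0 CPM with lesions and 81.0 ± 33.9 CPM without (SD over 3 pools). Its log2 fold was -0.27 (SE 0.32, limma adjusted p = 0.798), with a 95% interval of 0.516 to 1.33 on the fold scale, and without lesion-free pool 4 the log2 fold was 0.04.

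F13A1, the A subunit of coagulation factor XIII, which resident macrophages and platelets make, had 13.5, 10.5 and 54.8 CPM in lesion pools and 11.6, 5.87 and 10.1 CPM in lesion-free pools. Only lesion pool 3 lay far above the rest, at 5.20 times the lowest lesion pool. The log2 fold was 1.22 (SE 0.66, limma adjusted p = 0.54), with a 95% interval of 0.868 to 6.24 on the fold scale. Without lesion pool 3 it was 0.35 (limma adjusted p = 0.853). The same pool was the highest for CD68 and OLR1, but not for MSR1 or CD36.

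For none of the resident markers was the unadjusted p under 0.05: it was 0.267 for LYVE1, 0.409 for FOLR2 and 0.087 for F13A1, and limma-trend called none of them either. These p-values do not show that the genes were unchanged. The intervals show how large a rise the data allow: up to 1.69-fold for LYVE1 and 1.33-fold for FOLR2, against a lower bound of 11.3-fold for MSR1 and 7.85-fold for CD68. For F13A1 the upper bound of 6.24-fold lies above the lower bounds for CD36 and OLR1.

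**Figure D2:**
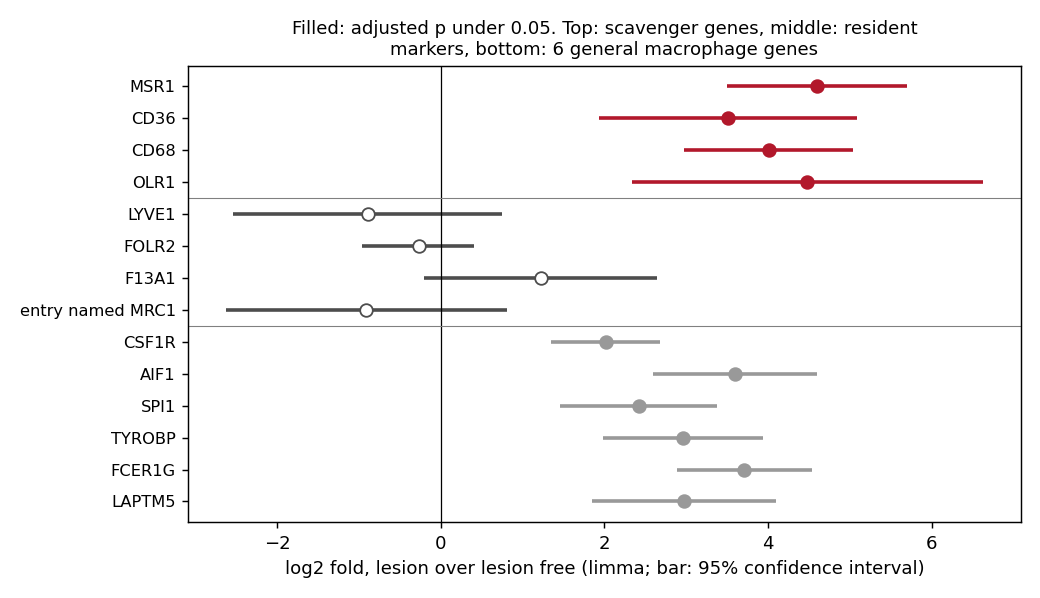
Log2 fold of lesion over lesion-free pools with its 95% confidence interval, for 4 scavenger genes, 3 resident markers with the entry that only the reference names MRC1, and 6 general macrophage genes; filled points passed an adjusted p of 0.05. Scavenger genes lie between 3.51 and 4.60 and resident markers between -0.89 and 1.22.

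The contrast between both sets was also taken within each pool, as the log2 ratio of a scavenger gene to a resident marker after adding 0.5 CPM. Such a ratio is comparable between pools, but not between gene pairs, since transcript lengths differ. MSR1 over LYVE1 was 5.92, 4.88 and 4.97 in lesion pools and -0.59, 0.08 and 0.21 in lesion-free pools. Averaged on the log2 scale, the ratio in lesion pools was 41.0 times that in lesion-free pools. CD68 over FOLR2 was 1.47, 0.75 and 2.74 in lesion pools and -2.73, -2.08 and -2.89 in lesion-free pools, a difference of 4.22.

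Over 12 such pairs the lesion mean exceeded the lesion-free mean by 2.35 to 5.36 on the log2 scale, and in 11 pairs the groups did not overlap. The exception was CD36 over F13A1, with 3.35, 2.06 and -0.42 in lesion pools and -1.88, 0.42 and -0.59 in lesion-free pools. There lesion pool 3 fell within the lesion-free range. The two-sided exact permutation p was 0.1 in the 11 pairs, the smallest that 3 pools against 3 allow, and 0.109 after adjustment over the 12 pairs. For CD36 over F13A1 the exact permutation p was 0.2. The pairs share genes and pools, so they are not independent, and the design cannot reach 0.05. Each scavenger gene already separated the groups by itself, so its ratio to almost any gene that changed little would separate them too. The ratios therefore largely restate the folds of the single genes and add no separate evidence. Ratios to genes other than the resident markers were not computed.

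**Figure D3:**
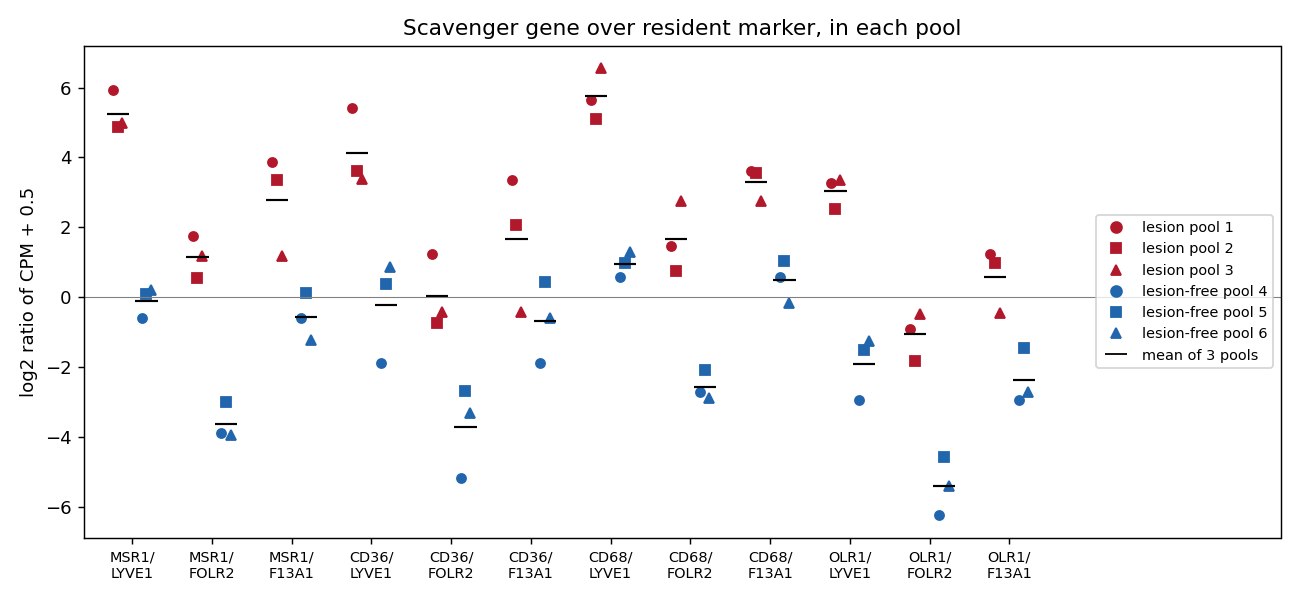
Log2 ratio of each of 4 scavenger genes to each of 3 resident markers in every pool, with lesion pools in red, lesion-free pools in blue and bars at the mean of 3 pools. In 11 of the 12 pairs all lesion pools lie above all lesion-free pools; CD36 over F13A1 overlaps.

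General macrophage genes were themselves higher in lesion pools, and their part in the member results was not tested. Of 13 measured macrophage genes, 11 rose and 0 fell, among them FCER1G, the signalling chain of Fc receptors, at 13.1-fold (limma adjusted p = 0.000134), and MPEG1, a pore-forming protein of phagocytes, at 8.47-fold (limma adjusted p = 0.000132). CD14, the endotoxin co-receptor, did not pass and overlapped between the groups (1.51-fold, limma adjusted p = 0.584). PTPRC, the leukocyte phosphatase CD45, was 10.2-fold higher without overlap but did not pass either (limma adjusted p = 0.0559). The summed level of the list was 1520 to 2550 CPM in lesion pools and 226 to 432 CPM in lesion-free pools. Each member was therefore also expressed relative to the mean log2 level of 6 macrophage genes (CSF1R, AIF1, SPI1, TYROBP, FCER1G and LAPTM5), which was 2.89 higher in lesion pools, as a description with no test.

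On that relative log2 scale MSR1 stood at 1.27, 0.57 and -0.02 in lesion pools and at -1.16, -0.59 and -1.25 in lesion-free pools, and the groups did not overlap. The lesion mean was higher by 1.61 for MSR1, 1.06 for CD68, 1.19 for OLR1 and 0.59 for CD36, and only CD36 overlapped. The resident markers went the other way, by -3.75 for LYVE1, -3.16 for FOLR2 and -1.76 for F13A1. The base itself was 2.89 higher in lesion pools, so a gene with unchanged CPM would stand lower by about that much. Lower relative values are therefore not by themselves a fall in the markers. How many of all genes tested stand lower in this way was not computed. LYVE1 stood at -4.65, -4.31 and -4.99 in lesion pools and at -0.57, -0.67 and -1.46 in lesion-free pools, 13.5-fold lower relative to macrophage genes in lesion pools. FOLR2 was 8.93-fold lower on the same scale and F13A1 3.38-fold lower, and in both the groups did not overlap.

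The size of these values depends on the genes that stand for macrophages. With CSF1R alone, the receptor for the growth factor that maintains macrophages, LYVE1 was 7.24-fold lower, FOLR2 4.80-fold lower and F13A1 1.82-fold lower in lesion pools, and F13A1 then overlapped. CSF1R itself rose 4.05-fold (limma adjusted p = 0.0037), with a 95% interval of 2.55 to 6.43. Its lower bound lies above the upper bounds of LYVE1 and FOLR2 and below that of F13A1. CSF1R had the smallest rise of the 6 base genes (log2 fold 2.02). By log2 fold, the macrophage gene CYBB (4.24) lay above CD68 (4.01) and CD36 (3.51). FCER1G (3.71), AIF1 (3.59) and ITGB2 (3.53) also lay above CD36. MSR1 (4.60) and OLR1 (4.48) lay above all 13 genes of the general macrophage list. They lay below TREM2 (7.87) and CLEC7A (8.30), receptors of another list that had few or no counts in lesion-free pools. An excess of any scavenger gene over macrophage genes therefore depends on the genes chosen, and no other base was run.

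**Figure D4:**
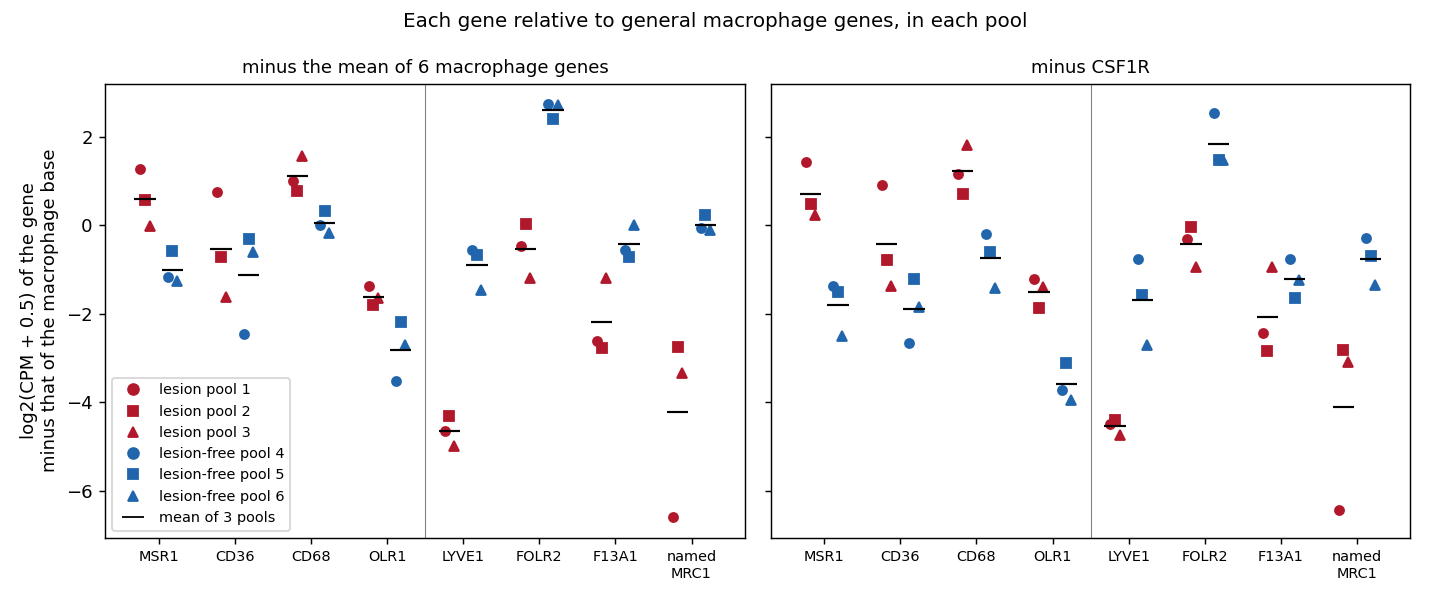
Log2(CPM + 0.5) of each gene minus that of 6 macrophage genes (left) or of CSF1R alone (right) in every pool, with lesion pools in red, lesion-free pools in blue and bars at the mean of 3 pools. Scavenger genes lie higher in lesion pools and LYVE1, FOLR2 and the entry named MRC1 lie lower in both panels. CD36 overlaps in both and F13A1 overlaps against CSF1R. Both bases are higher in lesion pools, so a gene with unchanged CPM would also lie lower.

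MRC1, the mannose receptor that clears glycoproteins in macrophages and lymphatic endothelium, was dropped by the rule. However, an entry listed under a clone name in the deposited table (ENSSSCG00000011038) is named MRC1 by identifier in the reference, and its values were looked at outside the rule. It had 2, 121 and 131 counts in lesion pools, or 0.384, 10.8 and 12 CPM, and 16.6, 11.7 and 9.35 CPM in lesion-free pools. Lesion pool 1 was nearly empty, whereas the other lesion pools lay within the lesion-free range. The log2 fold was -0.91 (SE 0.80, limma adjusted p = 0.72), and -0.10 without lesion pool 1 (limma adjusted p = 0.961).

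FOLR2 has a close relative, FOLR1, or folate receptor alpha, among its neighbours in the RefSeq annotation of Sscrofa11.1. Reads of such relatives can be divided between them by estimation, so the FOLR2 counts are uncertain to that extent. FOLR1 was looked at after its values were seen. Of 2 entries with that symbol, one held no count, and the other had 283, 180 and 283 CPM in lesion pools and 86.6, 53.2 and 46.6 CPM in lesion-free pools. That entry rose 4.06-fold (log2 fold 2.02, SE 0.31, limma adjusted p = 0.00368). FOLR1 and FOLR2 together had 344, 256 and 338 CPM in lesion pools and 206, 108 and 116 CPM in lesion-free pools, with no overlap. Whether FOLR2 reads were assigned to FOLR1 was not tested.

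The isoform table split the members further. Isoforms were tied to a member where those with its name summed to the gene's count within 1 count, or where a single one equalled it. This gave 20 isoforms, of which 18 had a count and 11 were tested. One of the 11 was called higher, CD68-001 (log2 fold 4.05, limma adjusted p = 0.00457), and 0 were lower. Across the table, 0.418% of isoforms were called higher and 0.0316% lower. Of 4 isoforms named for OLR1 and 6 named for CD163, a single one each matched its gene, so the names in that table do not identify a gene by themselves.

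MSR1-001 held 82.8%, 67.1% and 61.6% of the MSR1 counts in lesion pools, and MSR1-003 held 17.2%, 26.9% and 38.4%. In lesion-free pools, where MSR1 had only 70, 54 and 39 counts, MSR1-001 took 60.0%, 0% and 59.0%. CD36-003 took 100%, 93.5% and 68.6% of CD36 in lesion pools and 0%, 100% and 92.2% in lesion-free pools. All 600 F13A1 counts of lesion pool 3 fell on F13A1-001, which had 0 and 37 counts in lesion pools 1 and 2 and 54, 46 and 99 in lesion-free pools. Shares that jump between 0 and 100% among pools of 1 group were not read as a difference between groups.

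**Figure D5:**
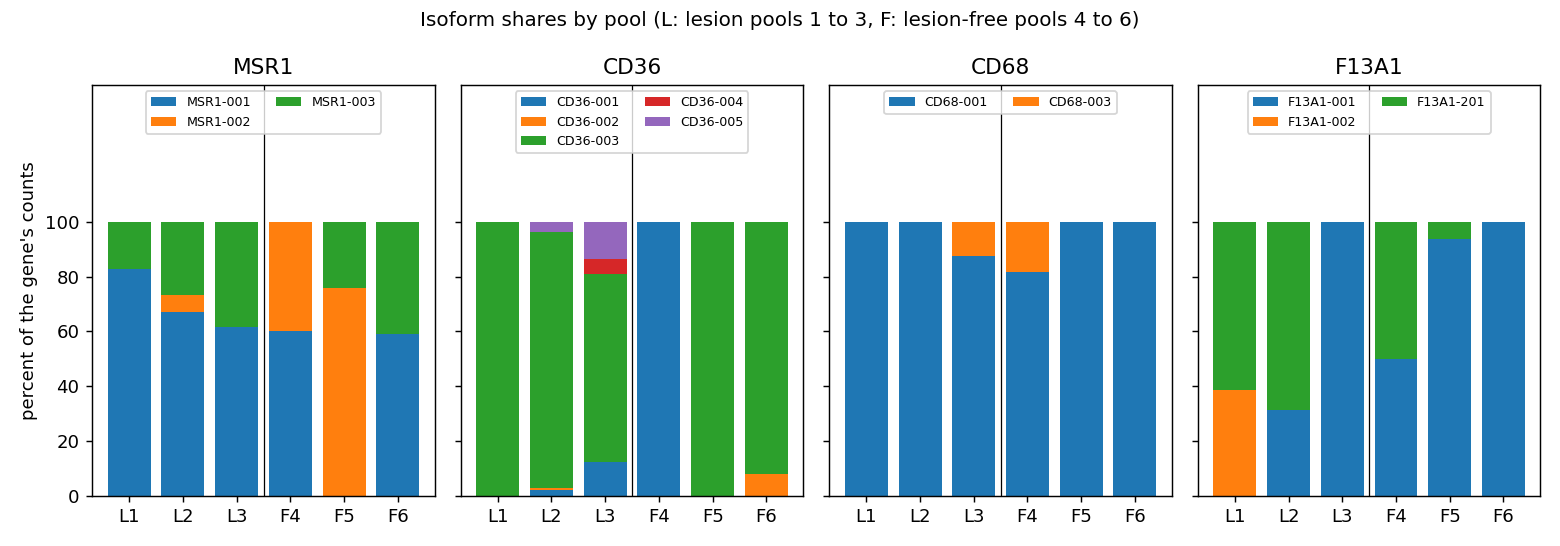
Share of each gene's counts assigned to each of its isoforms, in percent, for MSR1, CD36, CD68 and F13A1 in lesion pools (L1 to L3) and lesion-free pools (F4 to F6). CD68-001 takes 81.6% or more in every pool, whereas isoforms of MSR1, CD36 and F13A1 vary among pools of the same group.

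Most other receptors that bind lipoproteins, dying cells or polyanions did not pass the test. Of 17 tested, 1 rose and 0 fell, with a median log2 fold of 0.56. The gene that rose was CLEC7A, the beta-glucan receptor Dectin-1, at 48.8, 24.1 and 43.3 CPM in lesion pools and 0.431, 0 and 0 CPM in lesion-free pools (limma adjusted p = 0.0482), a call lost when lesion pool 1 or 3 or any 1 lesion-free pool was left out (limma adjusted p between 0.0549 and 0.287). TREM2, the lipid receptor of foamy macrophages, named after its values were seen, had 386 counts in lesion pools and 0 in lesion-free pools. Against a floor of 3 counts over the lesion-free group, the summed counts were 129-fold higher, a bound for counting error only. The limma 95% interval, which includes the spread between pools, ran from 15.9-fold to 3470-fold (limma adjusted p = 0.0564). TREM2 passed under each of 5 other settings that kept all pools and did not pass when any 1 pool was left out. With TREM2 at 129-fold the list median was unchanged at 0.56. SCARB2, the lysosomal membrane relative of CD36, had 525, 363 and 415 CPM in lesion pools and 336, 262 and 287 CPM in lesion-free pools (limma adjusted p = 0.473). SCARA3, a class A relative linked to oxidative stress, overlapped between the groups, at 178, 262 and 281 CPM in lesion pools and 335, 337 and 190 CPM in lesion-free pools.

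Among 13 other tested genes of resident or perivascular macrophages, 1 rose and 0 fell, with a median log2 fold of 0.91. At an unadjusted limma p under 0.05, 6 of them were higher and 0 lower, but the share of all genes at that limit was not computed. In 6 every lesion pool lay above every lesion-free pool, against 10.5% of all genes tested, and in 0 below. By overlap, this wider list thus leaned upward, unlike LYVE1 and FOLR2. GAS6, the bridging ligand for dead cells, and TXNIP, a regulator of redox balance, had log2 folds of -0.49 and 0.19 and did not pass. SIGLEC1, the sialoadhesin of tissue macrophages, named after its values were seen, had 20, 6.87 and 13.2 CPM in lesion pools and 2.26, 1.80 and 2.13 CPM in lesion-free pools (limma adjusted p = 0.315).

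Of 19 tested entries for regulators and lipid handling partners of scavenger receptors, 3 rose and 0 fell, with a median log2 fold of 0.78. SPI1, the myeloid transcription factor PU.1, had 50.7, 56.0 and 105 CPM in lesion pools and 23.3, 11.4 and 7.82 CPM in lesion-free pools (5.35-fold, limma adjusted p = 0.014), a call lost without lesion-free pool 5 or 6 (limma adjusted p = 0.0607 and 0.0667). LGALS3, the galactoside-binding lectin galectin-3, rose 20.3-fold (limma adjusted p = 0.000169), and ABCA1, the cholesterol exporter, rose 6.16-fold (limma adjusted p = 0.00423). PPARG, the nuclear receptor that can induce CD36, was named after its values were seen: it had 15, 7.85 and 7.94 CPM in lesion pools and 0.862, 0 and 0.305 CPM in lesion-free pools (limma adjusted p = 0.259). NR1H2, the oxysterol receptor LXR beta, and the more abundant of the 2 CD9 entries did not pass.

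Some members are also made by other cells, whose markers were summed. Lymphatic markers, relevant to LYVE1, had 59.2 to 170 CPM in lesion pools and 110 to 136 CPM in lesion-free pools, with 0 of 6 called by limma, or by limma-trend, and 1 higher and 1 lower at an unadjusted p under 0.05. These were CCL21, with means of 54.4 CPM with lesions and 17.3 CPM without, and FOXC2, at 49.2 and 91.8 CPM. Most of the sum was these genes, which went opposite ways. PROX1, which defines lymphatic endothelium, was at 0 in lesion pool 1 and in all lesion-free pools, and TFF3 was at 0 throughout. Adipocyte markers, relevant to CD36, had 206 to 312 CPM in lesion pools and 400 to 411 CPM in lesion-free pools, with 0 of 6 called by either method, 1 lower at an unadjusted p under 0.05, and LEP at 0 in every pool. Most of that sum was PNPLA2, at 159, 219 and 191 CPM in lesion pools and 362, 305 and 313 CPM in lesion-free pools. CIDEC went the other way, with means of 18.9 CPM with lesions and 8.46 CPM without, and overlapped. Platelet markers, relevant to F13A1 and CD36, had 6.57 to 7.14 CPM in lesion pools and 3.11 to 5.59 CPM in lesion-free pools. Both PPBP entries and GP1BB were at 0 in every pool, and the 1 platelet gene tested, the adhesion molecule SELP, did not pass (limma adjusted p = 0.748).

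Blood endothelial markers, relevant to CD36 and OLR1, had 589 to 867 CPM in lesion pools and 638 to 685 CPM in lesion-free pools, with 0 of 10 called by limma, 1 by limma-trend, and 3 higher and 1 lower at an unadjusted p under 0.05. These markers went different ways within the sum. PECAM1, TEK and CA4 were the higher ones, with lesion and lesion-free means of 292 and 171 CPM, 29.2 and 16.5 CPM, and 15.4 and 0.319 CPM. ESAM was the lower one, at 129 and 257 CPM. In all 4 the groups did not overlap. Of the smooth muscle genes, 2 of 7 fell and 0 rose. At an unadjusted limma p under 0.05, 6 were lower and 0 higher. In 5 every lesion pool lay below every lesion-free pool, against 8.97% of all genes tested. The called genes were CNN1, calponin (log2 fold -1.36, limma adjusted p = 0.0251), and DES, desmin (log2 fold -1.35, limma adjusted p = 0.0468), and neither passed without lesion pool 1 or without lesion-free pool 5 or 6. DES also did not pass with limma-trend (adjusted p = 0.0615). Of 5 dendritic genes measured, WDFY4, which serves antigen cross-presentation, was the 1 tested, and it rose (log2 fold 3.62, limma adjusted p = 0.013). Its call was lost without lesion-free pool 4, 5 or 6 (limma adjusted p = 0.0501, 0.0647 and 0.0883), at log2 folds of 3.63, 3.76 and 3.44. Neutrophil markers had 78.8 to 279 CPM in lesion pools and 0 to 3.88 CPM in lesion-free pools, nearly all of it MMP9, which macrophages also make. MMP9 itself did not pass (limma adjusted p = 0.151). S100A8 and S100A9 had at most 0.821 and 1.34 CPM in any pool, MMP8 was at 0, and S100A12 had 8.94 CPM in lesion pool 3 and 0 elsewhere. Fibroblast markers had 1620 to 2060 CPM in lesion pools and 1800 to 2440 CPM in lesion-free pools, with 0 of 8 called by either method and 3 higher at an unadjusted p under 0.05. How many of all genes tested had an unadjusted p under 0.05 was not computed, so the counts at that limit for other cells are a description only. The part of any of these cells in the member values was not tested beyond these levels.

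The genes with a pattern most like MSR1 were sought among 7814 named genes, by Pearson correlation of log2 CPM over the 6 pools. They were CXCL14, a chemokine, with r = 0.997, PLD4, an endolysosomal nuclease, with r = 0.997, and DRAM1, a lysosomal membrane protein, with r = 0.996. For LYVE1 they were TOMM7, a mitochondrial import subunit, with r = 0.990, IGFBP4, a binding protein of insulin-like growth factors, with r = 0.977, and IQCC with r = 0.977. With 6 pools in 2 groups, such a value includes the group difference, and all genes of a pool share its depth, so it is a description only. CXCL14 had 633, 275 and 460 CPM in lesion pools and 6.79, 8.02 and 3.96 CPM in lesion-free pools, so that lesion pool 1 was highest and lesion-free pool 6 lowest, as for MSR1. TOMM7 had 50.4, 58.1 and 57.7 CPM in lesion pools and 97.7, 75.5 and 53.7 CPM in lesion-free pools.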

How the data were processed

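The authors deposited tables of raw estimated read counts per gene and per isoform for 6 RNA pools. The submitters' processing notes name RSEM 1.3.0 and edgeR and give neither a role. Per the labels' protocols, libraries were stranded total RNA. The aligner and the genome build were not given in the sources used here. Values carried commas as digit separators, which were removed. Since the columns as deposited could not be recorded as counts with the commas, the plan used no count models. After removal of the commas all values were whole numbers, so this was a choice and not a limit of the data. The test was limma 3.58.1 in R 4.3.3 with voom weights (0.5 added to each count) and robust empirical Bayes, two-sided, adjusted by Benjamini and Hochberg over all genes tested, threshold 0.05.

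Tested genes reached 1.00 CPM, the value of 10 counts in a median library, in at least 3 pools, with 15 counts in all. When a pool was left out, the smaller group's size replaced 3. Scaling used trimmed means of log ratios (TMM, 30% and 5% trimmed), and printed CPM and relative levels use that scaling. The procedure was tested on simulated data. Alternatives were median-of-ratios scaling, plain totals, no filter, limma-trend on log2(CPM + 1), sample quality weights and leaving out each pool.

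The members and gene lists were chosen with earlier results of these data known. List genes were matched by symbol, or by identifier in a reference table of names that holds 50.1% of the identifiers. Entries that it names otherwise were left out of the lists. Named genes were the members, up to 4 called genes with the smallest adjusted p and up to 2 others with the highest mean per list, and the 3 genes most like MSR1 and LYVE1. Likeness was limited to genes whose mean log2 CPM reached 1, and since neither CD163 nor MRC1 was tested as a member, none was sought for them. For lists of other cell types, summed levels, called genes, defining markers and some genes behind a sum are given. Values of 1 gene among the other resident macrophage genes are not reported here.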

Additional observations from a re-analysis of the deposited data

How the results depend on the processing

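The count of 4 scavenger members called higher stood under the 5 alternatives in scaling, filter, test or weights, and was between 2 and 4 when a pool was left out, since CD36 and OLR1 lost their calls. No member was called lower under any of the 11 alternatives. MSR1 and CD68 kept their call under each of them. FOLR2 changed sign, to a log2 fold of 0.04, without lesion-free pool 4 (-0.51 to 0.04 over the pools left out), and no alternative called it. All 12 ratios kept their direction under the 8 alternatives in scaling or pools; filter, limma-trend and weights do not enter a ratio and were not run for it. Plain library totals moved the median log2 fold of all genes to 0.16.

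Over all genes, 113 were higher and 9 lower. Without a filter the counts were 171 and 17, with limma-trend 202 and 14, and with quality weights 213 and 40. Leaving out 1 pool gave 55 to 150 higher and 4 to 36 lower. Among other scavenger receptors, 2 were higher under each of the 5 alternatives that kept all pools, and 0 to 1 when a pool was left out. Other resident macrophage genes called higher numbered 3 without a filter and 2 with limma-trend or without lesion pool 2, and regulators 5 with limma-trend. In the lists of other cells, quality weights called 1 lymphatic, 1 blood endothelial and 1 fibroblast gene higher. They also called 1 blood endothelial and 3 smooth muscle genes lower. Without a filter, 1 blood endothelial and 1 neutrophil gene were called higher. A neutrophil gene was also called with limma-trend and without lesion pool 2. Member isoforms called higher numbered 4 with limma-trend. Not called under any setting, MSR1-002 reversed to 0.43 with quality weights and to 0.59 without lesion pool 3 (-3.70 to 0.59 over the pools left out). FOLR2-201 reversed to 0.05 without lesion-free pool 4 (-0.52 to 0.05). F13A1-201 reversed to -0.45 without lesion pool 2 and -0.58 without lesion-free pool 6 (-0.58 to 3.96). F13A1-001 reversed to 0.33 with quality weights and 0.94 without lesion pool 1 (-3.11 to 0.94). Against CSF1R alone the relative differences were 2.50 for MSR1, 1.96 for CD68, 2.09 for OLR1, -2.86 for LYVE1, -2.26 for FOLR2 and -0.86 for F13A1. The causes were not tested. No paired analysis was possible because the groups share no pool number. Depth limits MARCO and the entry labelled CD163, which were too low to test, and OLR1 in lesion-free pools and LYVE1, which rest on few counts.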
